A study of Oncorhynchus mykiss with 9 samples.

Results

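The miR-200, miR-203 and miR-205 families are small RNAs known from epithelial cells, and they were followed here in the liver of rainbow trout (Oncorhynchus mykiss). The 1413 miRNA entries measured include 873 predicted ones, and 12 carry a name that starts with miR-200, miR-141, miR-429, miR-203 or miR-205. The 9 members described are those with at least 1 TPM on average over the 9 libraries, TPM being the deposited read abundance scaled to the reads of a library. They are miR-200-x, miR-200-y, miR-200-z, miR-141-x, miR-141-y, miR-429-y, miR-429-z, miR-203-y and miR-205-x. The letters that end the names are printed as deposited, without a stated meaning. All libraries came from small RNA of wild-type liver, 3 after acute hypoxia for 12 h, 3 after moderate hypoxia for 12 h and 3 from control fish. Oxygen levels are not stated, and neither is whether libraries come from separate fish, so the p-values describe the spread among these libraries, which may be technical.

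In mammals the miR-200 family, made up of miR-200a, miR-200b, miR-200c, miR-141 and miR-429, holds cells in an epithelial state by repressing ZEB1 and ZEB2, repressors of the adhesion gene E-cadherin. In mammalian liver the family belongs to the bile duct epithelium more than to the hepatocytes. In mice miR-203 promotes the differentiation of skin epithelium, and miR-205 marks stratified and glandular epithelia of mammals and also acts on ZEB1 and ZEB2. A miRNA finds its targets mainly through its seed, bases 2 to 8 from the 5′ end, so members with a common seed can share targets.

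The listed sequences of the members fall into 5 seeds. They are shown to compare the seeds, 5′ to 3′ and with the seed in capitals.
miR-200-y: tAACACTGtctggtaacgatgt
miR-200-z: tAACACTGtctggtaatgatgt
miR-141-y: tAACACTGtctggtaacgatg
miR-429-y: tAATACTGtctggtaatgccgt
miR-429-z: tAATACTGtctggtaatgccgtt
miR-200-x: cATCTTACctgacagtgctgga
miR-141-x: cATCTTACctgacagtgct
miR-203-y: gTGAAATGtttaggaccactcg
miR-205-x: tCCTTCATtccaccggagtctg

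The first 3 share the seed AACACTG, that of miR-200a and miR-141, and both miR-429 entries hold AATACTG, that of miR-200b, miR-200c and miR-429. Between miR-200-z and miR-429-y the listed sequences differ by C4T in the seed and by A19C and T20C outside it, the base of miR-200-z given first and positions counted from the 5′ end. The sequences of miR-200-y and miR-200-z differ by C17T alone. That of miR-141-y is miR-200-y without its last base, that of miR-141-x is miR-200-x without its last 3, and that of miR-429-y is miR-429-z without its last base. A listed sequence may stand for several. In a table of the same file that covers only the acute hypoxia and control libraries, the control values of miR-200-y lay within 0.0925% of those used here, yet that table lists tAACACTGtctggtaatgatg. Of 204 known names whose control values lay within 1% plus 0.12 TPM in both tables, 21 list another sequence, among them miR-200-y, miR-141-x and miR-429-z. Each of these keeps its seed there and differs after it. For miR-429-z that table lists tAATACTGcctggtaatgaaa, which is not miR-429-y with 1 more base. The differences outside the seed given above thus hold for the listed sequences only. Seeds, too, were read from listed sequences.

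The reads behind the libraries were inferred from what 1 read is worth in TPM, not observed. By that estimate they numbered 8443327 to 11841130 under acute hypoxia, 11125144 to 16515716 under moderate hypoxia and 9075434 to 10346821 in control. Limma was fitted on log2(TPM + 1) to the 481 entries with a mean of 1 TPM or more, with p-values adjusted over all 481 in each comparison and a threshold of 0.05. Hepatocyte entries (miR-122, miR-192 and miR-194) made up 434292 to 489697 TPM of the acute, 543881 to 568742 TPM of the moderate hypoxia and 342298 to 528359 TPM of the control libraries. Moderate hypoxia libraries 1 and 2 stood apart through 33 entries more than 4 times higher there than in any other library, which summed to 545 and 630 TPM against 26.0 to 34.4 TPM elsewhere. None of the 9 members is among these entries. At the 98 entries of at least 100 TPM, moderate hypoxia library 3 lay between libraries 1 and 2 in 87.8% of cases, against at most 67.3% for any other library within its group. For 6 of the 9 members it also lay between them. Whether the 3 moderate hypoxia libraries are independent, as the p-values assume, was not tested.

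The entries with the seed of miR-200a and miR-141 carried nearly all reads of these families. They made up 96.8 to 97.8% of the summed members in each library, led by miR-200-y, the entry of rank 24 by mean abundance among the 481. It read 2469, 5126 and 3727 TPM in the acute hypoxia libraries, 3890, 2577 and 3254 TPM in the moderate hypoxia libraries and 4309, 3459 and 2296 TPM in the controls. The 3 groups overlapped, and the spread within each was wider than the distance between their means. Its log2 change was -0.02 (95% interval -0.70 to 0.66, adjusted p = 0.972) under moderate hypoxia against control, and 0.15 (-0.53 to 0.84, adjusted p = 0.922) under acute hypoxia. Neither passed the limma test, and both intervals hold changes in either direction.

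The near copy miR-200-z read 339, 1481 and 765 TPM under acute hypoxia, 814, 330 and 599 TPM under moderate hypoxia and 509, 467 and 489 TPM in control. The controls lay close together, with a highest to lowest ratio of 1.09, while that ratio was 4.37 among the acute and 2.47 among the moderate hypoxia libraries, which lay on both sides of the controls. Its log2 change was 0.57 under acute hypoxia (adjusted p = 0.678) and 0.16 under moderate hypoxia (adjusted p = 0.857). The third entry of this seed, miR-141-y, read 514, 746 and 654 TPM under acute hypoxia, 753, 450 and 622 TPM under moderate hypoxia and 926, 727 and 355 TPM in control. It stood at 14.5 to 21.5% of miR-200-y in every library, and its log2 changes of 0.02 and -0.06 against control under acute and moderate hypoxia did not pass (adjusted p = 0.972 and 0.924).

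**Figure D1:**
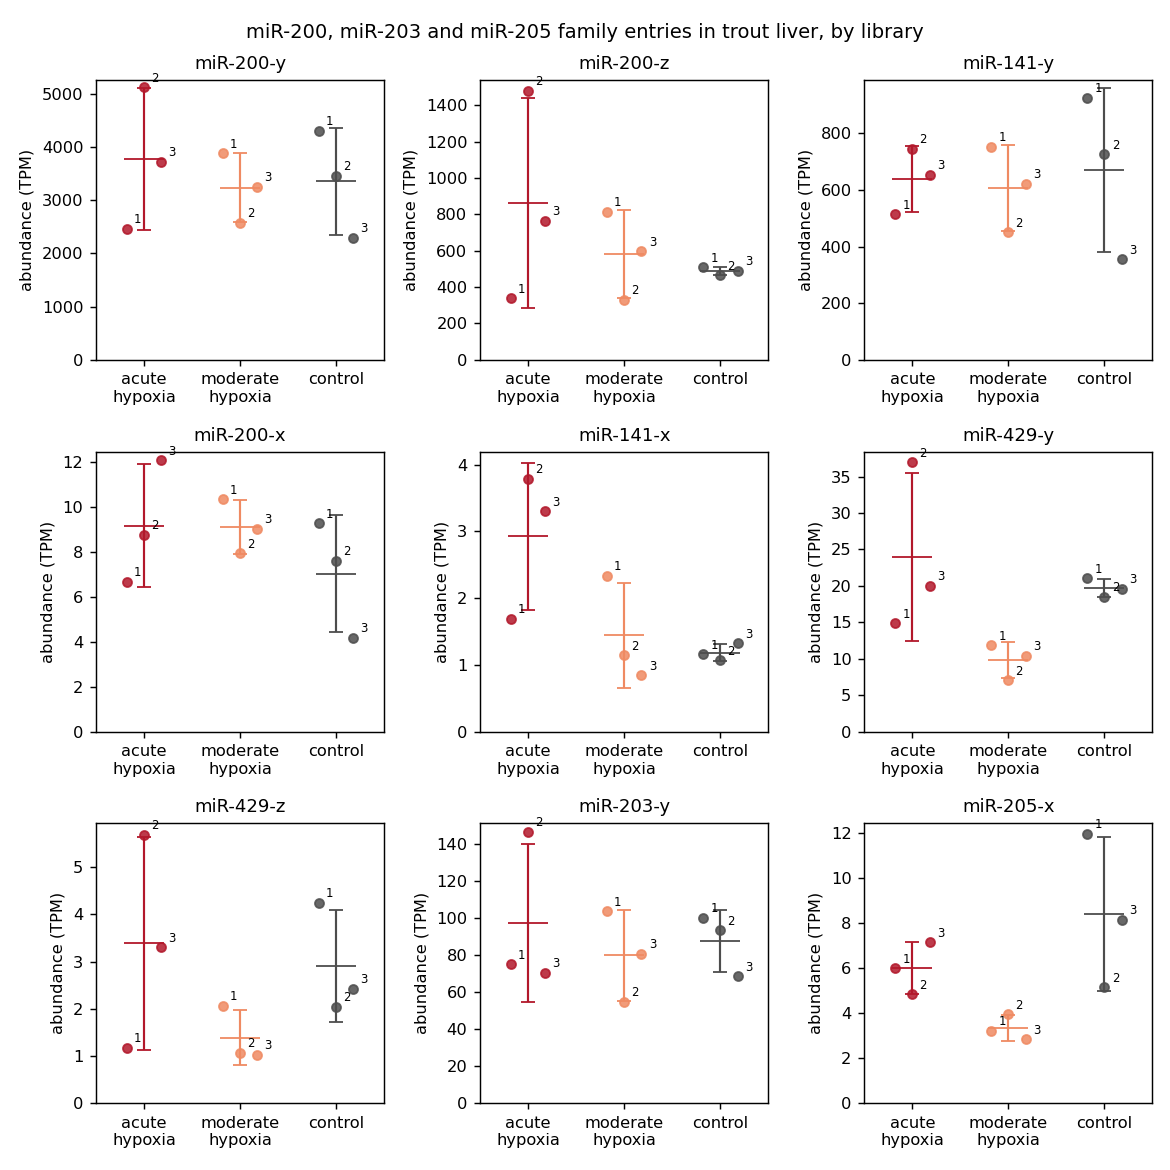
Abundance in TPM (vertical axes, from 0) of the 9 members in each liver library, with points numbered by library and bars for the mean and SD of 3 libraries. The 3 moderate hypoxia points of miR-429-y and miR-205-x lie below every control point, while the groups of miR-200-y, miR-200-z, miR-141-y and miR-203-y overlap.

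Under moderate hypoxia miR-429-y, whose seed is that of miR-200b, fell. It read 14.9, 37.0 and 20.0 TPM in the acute hypoxia libraries, 11.9, 7.06 and 10.4 TPM in the moderate hypoxia libraries and 21.1, 18.5 and 19.6 TPM in the controls, from 105 to 312 reads a library. Every moderate hypoxia library lay below every control and every acute hypoxia library, and the acute libraries lay on both sides of the controls. Moderate hypoxia did not overlap control for 43.2% of all tested entries, nor acute hypoxia for 52.8%. The mean of miR-429-y was 9.78 ± 2.47 TPM under moderate hypoxia and 19.7 ± 1.28 TPM in control (SD, n = 3 each), a ratio of 0.496. In whole liver, fewer cells that hold a miRNA cannot be told apart from less of it per cell. As TPM is scaled to the reads of a library, it also falls when other entries rise, and that part was not tested. On the log2(TPM + 1) scale the change was -0.97 (SE 0.318, limma adjusted p = 0.0445), where the median of all tested entries was -0.22. This call was lost under each of 4 other scalings, with values between -0.84 and -0.55 (adjusted p = 0.0528 to 0.283), with a pseudocount of 5 (adjusted p = 0.0639) and without a filter on low values (adjusted p = 0.0743). Of 9 fits that leave out 1 library it held in 2, those without acute hypoxia library 1 or 2, and was lost without any other library (adjusted p = 0.0682 to 0.141), and without both moderate hypoxia libraries 1 and 2 it was -0.86 (adjusted p = 0.366).

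In acute hypoxia miR-429-y was higher than in moderate hypoxia, at 24.0 ± 11.6 TPM in acute against 9.78 ± 2.47 TPM in moderate hypoxia (SD, n = 3 each), with a log2 change of 1.14 (SE 0.318, limma adjusted p = 0.0217). The median of all tested entries was 0.32 in this comparison. The call was lost with median of ratios scaling (0.80, adjusted p = 0.0721) and with quantile normalization (0.66, adjusted p = 0.182). In 6 of 9 fits that leave out 1 library it held, and the exceptions left out moderate hypoxia library 2 (adjusted p = 0.0838), acute hypoxia library 2 (adjusted p = 0.0782) or acute hypoxia library 3 (adjusted p = 0.0568). Without moderate hypoxia libraries 1 and 2 it was 1.03 (adjusted p = 0.254). Acute hypoxia against control gave 0.17 (95% interval -0.53 to 0.87, adjusted p = 0.922), which did not pass.

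The entry miR-429-z, listed here with 1 base more than miR-429-y, read 1.18, 5.69 and 3.30 TPM under acute hypoxia, 2.07, 1.08 and 1.03 TPM under moderate hypoxia and 4.25, 2.05 and 2.42 TPM in control. The groups overlapped, since moderate hypoxia library 1 and control library 2 were close together. Its log2 change was -0.69 under moderate hypoxia against control (SE 0.393, adjusted p = 0.211) and 0.76 acute against moderate (adjusted p = 0.156), and neither passed. With 14 to 48 reads a library it is measured less precisely than miR-429-y. Both miR-429 entries together summed to 27.3 ± 13.7 TPM under acute hypoxia, 11.2 ± 2.91 TPM under moderate hypoxia and 22.6 ± 2.44 TPM in control (SD, n = 3 each).

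**Figure D2:**
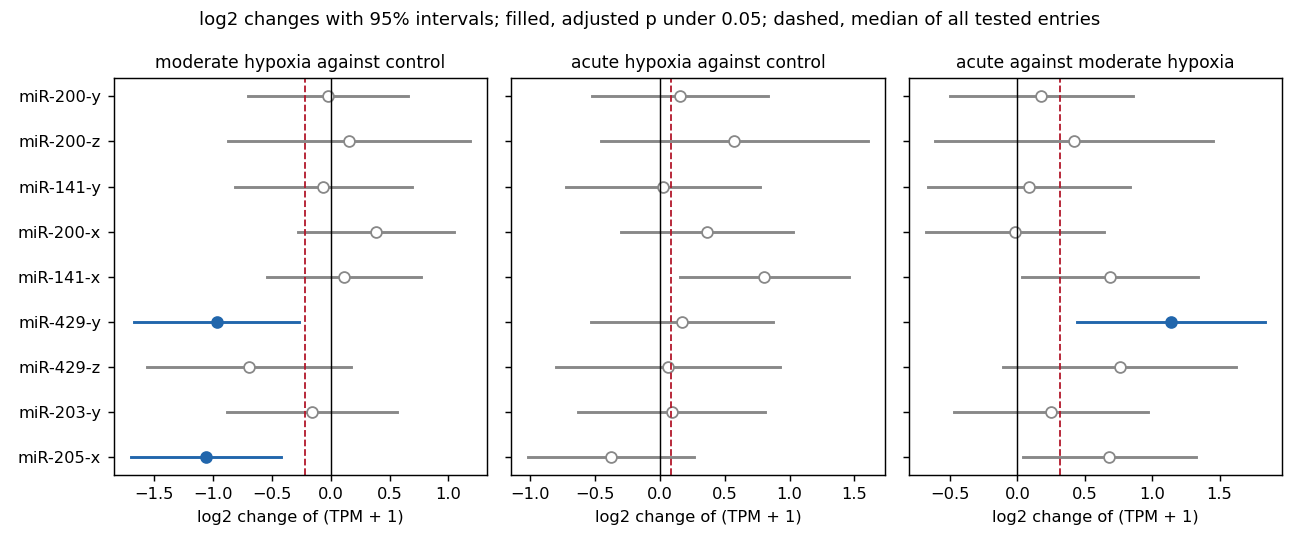
Log2 changes of (TPM + 1) of the 9 members with 95% intervals from limma (horizontal axes) in the 3 comparisons, filled where the adjusted p is under 0.05, with the median of all 481 tested entries dashed. The filled points are miR-429-y at -0.97 and miR-205-x at -1.06 under moderate hypoxia against control, and miR-429-y at 1.14 in acute against moderate hypoxia.

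Because scaling cancels within a library, miR-429-y was also set against miR-200-y of the other seed. It stood at 0.602, 0.721 and 0.538% of miR-200-y in the acute hypoxia libraries, 0.305, 0.274 and 0.320% in the moderate hypoxia libraries and 0.489, 0.535 and 0.854% in the controls. All moderate hypoxia values lay below all others. How often such ratios separate the groups over all tested entries was not counted. In TPM, moderate hypoxia did not overlap control for 43.2% of them, nor acute hypoxia for 52.8%. The log2 difference of this ratio was -1.02 for moderate hypoxia against control and 1.04 for acute against moderate hypoxia, each with an exact two-sided permutation p of 0.1, the smallest that 3 against 3 libraries allow, and 0.3 adjusted over the 6 ratio tests made. For acute hypoxia against control it was 0.02 (exact permutation p = 0.9). A fall of miR-429-y beyond that of miR-200-y is therefore not established by this test, which cannot reach 0.05. The pair was chosen after the values were seen.

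**Figure D3:**
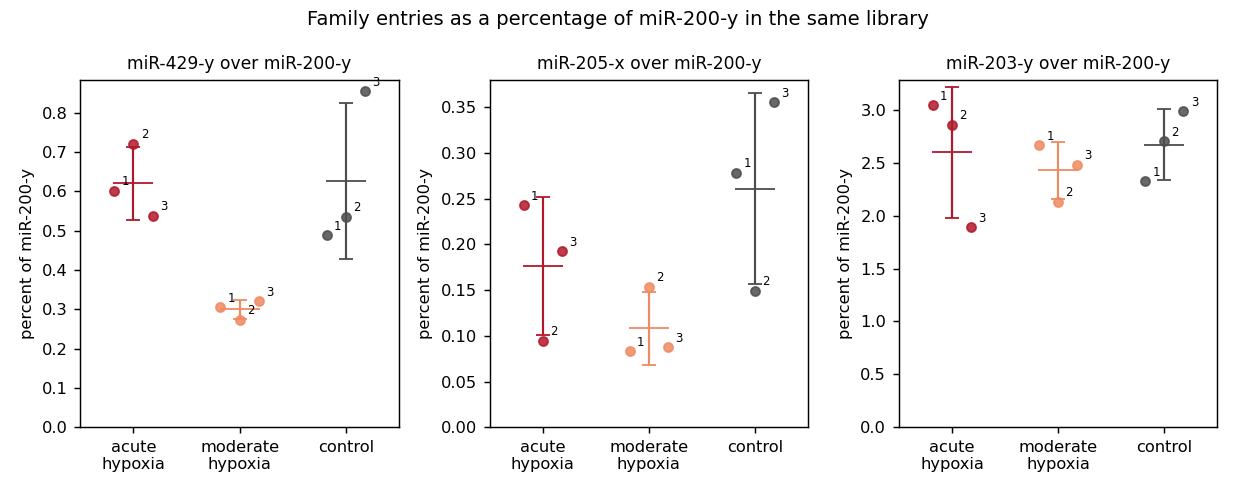
Level of miR-429-y, miR-205-x and miR-203-y as a percentage of miR-200-y in the same library (vertical axes, from 0), with numbered libraries and bars for the mean and SD of 3. The moderate hypoxia libraries lie at 0.274 to 0.320% for miR-429-y, below all others, while for miR-205-x and miR-203-y the groups overlap. Such separation was not counted for ratios of all tested entries.

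The epithelial miRNA miR-205-x also fell under moderate hypoxia. It read 5.996, 4.86 and 7.17 TPM in the acute hypoxia libraries, 3.24, 3.97 and 2.85 TPM in the moderate hypoxia libraries and 12.0, 5.16 and 8.15 TPM in the controls. The moderate hypoxia libraries lay below all others, and acute hypoxia overlapped the controls. Moderate hypoxia did not overlap control for 43.2% of all tested entries. The mean of miR-205-x was 3.35 ± 0.568 TPM under moderate hypoxia and 8.43 ± 3.42 TPM in control (SD, n = 3 each), a ratio of 0.397. The log2 change was -1.06 (SE 0.291, limma adjusted p = 0.0244). It was lost with median of ratios scaling (-0.85, adjusted p = 0.0616) and with only the compared groups in the fit (adjusted p = 0.0527). Of 9 fits that leave out 1 library 6 passed, and those that did not left out moderate hypoxia library 1 (-1.04, adjusted p = 0.0682), moderate hypoxia library 3 (-0.97, adjusted p = 0.0702) or control library 1 (-0.80, adjusted p = 0.0687). Without moderate hypoxia libraries 1 and 2 it was -1.23 (adjusted p = 0.229).

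These values of miR-205-x rest on 36 to 124 reads a library, and 36 reads have a 95% Poisson interval of 25.2 to 49.8, which covers counting error only. The comparison of acute with moderate hypoxia gave 0.68 (95% interval 0.04 to 1.32, adjusted p = 0.0924), and acute hypoxia against control gave -0.38 (-1.02 to 0.26, adjusted p = 0.676). Neither passed. The acute and moderate hypoxia groups did not overlap, which held for 52.8% of all tested entries in this comparison. As a share of miR-200-y the groups overlapped (log2 difference of the ratio -1.24 for moderate hypoxia against control, exact permutation p = 0.2, 0.3 adjusted).

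The skin epithelial miRNA miR-203-y showed no change that passed. It read 75.2, 146 and 70.5 TPM under acute hypoxia, 104, 54.9 and 80.7 TPM under moderate hypoxia and 100, 93.4 and 68.5 TPM in control. Acute hypoxia library 2 was the highest and moderate hypoxia library 2 the lowest, and the groups overlapped. The log2 changes were 0.09 (95% interval -0.63 to 0.81) under acute and -0.16 (-0.88 to 0.56) under moderate hypoxia against control (adjusted p = 0.943 and 0.791).

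The other arm of the miR-200a and miR-141 hairpins, listed as miR-200-x and miR-141-x, was far scarcer. Of these, miR-200-x read 6.67, 8.76 and 12.1 TPM under acute hypoxia, 10.3, 7.93 and 9.02 TPM under moderate hypoxia and 9.28, 7.60 and 4.19 TPM in control, or 0.171 to 0.324% of miR-200-y. Its log2 changes against control were 0.36 under acute and 0.38 under moderate hypoxia (adjusted p = 0.685 and 0.386). The entry miR-141-x is listed here with 19 nt. Where only acute hypoxia and control are covered, it is listed with 22 nt and another end than miR-200-x. Here miR-141-x read 1.69, 3.79 and 3.30 TPM under acute hypoxia, 2.34, 1.14 and 0.848 TPM under moderate hypoxia and 1.16, 1.07 and 1.32 TPM in control. All acute hypoxia libraries lay above all controls, from 20 to 32 against 11 to 12 reads. These groups did not overlap for 11.2% of all tested entries. For miR-141-x the log2 change of 0.80 (95% interval 0.15 to 1.46) under acute hypoxia against control had an unadjusted p of 0.0202 and did not pass (limma adjusted p = 0.331).

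Counted over the members, 2 of 9 passed the limma test under moderate hypoxia against control, both lower, where 25.6% of the 481 tested entries passed, 7.9% as higher and 17.7% as lower. The groups did not overlap for the same 2 members, against 43.2% of tested entries. The median log2 change of the 9 members was -0.06, against -0.22 over all tested entries. For acute hypoxia against control 0 of 9 passed and 0% of tested entries did, with limma unadjusted p under 0.05 for 1 of 9 members and 9.77% of tested entries. Groups did not overlap for 1 member, miR-141-x, and for 11.2% of tested entries, and the median log2 change was 0.15 for the members and 0.08 for all tested entries. For acute against moderate hypoxia 1 of 9 passed, as higher, against 30.6% of tested entries (22.9% as higher and 7.69% as lower). Groups did not overlap for 2 of 9 members against 52.8%, and the medians were 0.42 and 0.32. The members' counts thus lay near or below those of all tested entries. Both comparisons that involve moderate hypoxia share its 3 libraries.

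In the authors' deposited table of moderate hypoxia against control, miR-429-y had a log2 ratio of -1.01 and a false discovery rate of 0.306, and miR-205-x had -1.33 and 0.157. In the authors' deposited table of acute against moderate hypoxia miR-429-y had 1.29 and 0.0821. None of these passes 0.05 there. The authors' log2 ratios match the ratios of mean TPM without a pseudocount. The limma changes above are on the log2(TPM + 1) scale, where the added 1 shrinks changes of scarce entries such as miR-205-x.

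The members varied among the libraries within each group. Acute hypoxia library 2 was the highest of its group for 7 of 9 members and acute hypoxia library 1 the lowest for 7 of 9. Moderate hypoxia library 1 was the highest of its group for 8 of 9, and control library 1 for 8 of 9. The same orders were not counted over all tested entries, so they are not read as particular to these families. Some members are also listed here as cut forms of others, so they may not count separately. The listed sequences do not settle this. The summed members came to 3428, 7560 and 5263 TPM in the acute, 5591, 3433 and 4579 TPM in the moderate hypoxia and 5892, 4781 and 3244 TPM in the control libraries. The acute hypoxia libraries held both a sum near the lowest and the highest of all, and the 3 groups overlapped.

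Entries of these names under 1 TPM were miR-203-x, miR-205-y and miR-205-z, and each is the other arm or a longer form of a member. Summed over a group, miR-205-y, the other arm of miR-205, had 21 reads under acute hypoxia, 11 under moderate hypoxia and 20 in control, with 17 of the 21 in acute hypoxia library 1. For miR-203-x, the other arm of miR-203, there were 13 reads under acute hypoxia, 7 under moderate hypoxia and 3 in control, with 10 of the 13 in acute hypoxia library 2. In the tables joined over the 9 libraries miR-205-z, listed as miR-205-x with a tail of 2 bases, had 1 read in all. The table that covers only the acute hypoxia and control libraries lists another tail for it and gives 0 TPM in the acute hypoxia libraries and 0.0967, 0.0974 and 0.331 TPM in the controls. The miRNA named miR-8 in flies is the counterpart of the miR-200 family, and 3 entries under other names share the seed AACACTG. Of these, miR-8-y differs from miR-200-y by T11A alone, with 1 read in each acute hypoxia library, 12, 12 and 13 reads in the moderate hypoxia libraries and 5, 3 and 0 in the controls. Over the 3 libraries of a group miR-8-z had 16 reads under acute hypoxia, 28 under moderate hypoxia and 8 in control, and miR-236-y had 4, 7 and 4 in acute hypoxia, moderate hypoxia and control. The predicted entry that shares the seed of miR-205-y, listed as that sequence with 1 more base, had 15, 9 and 12 reads under acute hypoxia, moderate hypoxia and control. These reads are not scaled to depth, which reached 16515716 reads in a moderate hypoxia library and at most 11841130 in the other groups. In mean TPM and the same order, miR-8-y stood at 0.106, 0.891 and 0.259. For miR-236-y the means were 0.144, 0.187 and 0.134, and for miR-8-z 0.603, 0.696 and 0.263. These 3 entries average under 1 TPM and were not tested. By comparison, miR-200-y had 20833 to 53741 reads a library. Whether miR-8-y, listed with 1 other base, is a miRNA separate from miR-200-y was not tested.

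The profile most like that of a member was sought among entries of at least 10 TPM with another sequence, by the root-mean-square difference of mean-centred log2(TPM + 1) over the 9 libraries, as a description. Entries listed as cut forms of one another counted as other sequences, such as miR-141-y and miR-200-y, or miR-429-y and miR-429-z. Nothing is read from the closeness of such pairs. The members miR-429-z, miR-205-x, miR-200-x and miR-141-x average under 10 TPM, so none of them could be named as nearest. For miR-200-y the nearest were miR-141-y (0.187), miR-16-y (0.208) and miR-203-y (0.216), the last a member of another family. For miR-203-y they were miR-200-y (0.216), miR-141-y (0.296) and miR-499-x (0.299). For miR-200-z they were miR-200-y (0.410), miR-203-y (0.423) and miR-30-z (0.439), and for miR-141-y they were miR-200-y (0.187), miR-16-y (0.211) and miR-22-x (0.222). The nearest to miR-429-y lay outside these families, with miR-722-x (0.259), miR-18-x (0.268) and miR-130-y (0.271), and so did those of miR-205-x, with miR-21-x (0.220), miR-23-y (0.235) and miR-99-x (0.240). For miR-429-z they were miR-29-y (0.289), miR-429-y (0.293) and miR-722-x (0.297). For the scarcer arms they were miR-16-y (0.136), miR-455-x (0.224) and miR-22-x (0.233) for miR-200-x, and miR-30-z (0.269), miR-7132-y (0.298) and a predicted entry (0.308) for miR-141-x.

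Other lists, matched on the miRNA number, were read beside the members, in counts that passed the limma test. Over all tested entries 7.9% passed as higher and 17.7% as lower under moderate hypoxia against control, and 22.9% and 7.69% in acute against moderate hypoxia, and nothing is read from list counts near these shares. Of 5 tested entries of other epithelial and sensory miRNAs (miR-34-x, miR-96-x, miR-182-x, miR-183-x and miR-184-y), 1 rose and 1 fell under moderate hypoxia against control, miR-182-x with 1.42 (adjusted p = 0.00692) and miR-96-x with -0.77 (adjusted p = 0.0433), with a list median of 0.03. In acute against moderate hypoxia miR-182-x was lower. Of 14 entries of miRNAs that promote the transition of epithelial to mesenchymal cells in mammals, 2 rose, the Hox-encoded miR-10-x with 1.61 (adjusted p = 0.000323) and miR-10-z with 0.81 (adjusted p = 0.0292), and none fell, with a list median of -0.05. Between acute and moderate hypoxia 1 of these 14 was higher in acute, miR-21-y, and 4 were lower, miR-10-x, miR-10-z, miR-222-y and miR-9-z. Of 10 entries of stroma and smooth muscle 1 rose (miR-143-x) and 2 entries of miR-214 fell under moderate hypoxia against control, with a list median of -0.30, and 4 were higher in acute against moderate hypoxia. Of 7 hepatocyte entries miR-192-x rose and miR-194-x fell, with a list median of 0.03, and both stood the other way in acute against moderate hypoxia. Of 3 pancreatic entries none passed in either comparison, with a list median of 0.95 for moderate hypoxia against control, and of 4 of striated muscle miR-206-y fell in that comparison (median 0.22) and miR-1-z was lower in acute against moderate hypoxia. No list had an entry that passed in acute hypoxia against control.

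Some markers of other cells also changed in the comparison in which miR-429-y and miR-205-x fell. Under moderate hypoxia 4 of 6 tested entries of red blood cells fell, 1 of 2 of the endothelium fell, and 2 of 8 of leukocytes fell, where 17.7% of all tested entries passed as lower. The red blood cell entries that fell are all entries of miR-144 or miR-451. Both endothelial entries are miR-126, of which miR-126-y fell. Entries of the same miRNA may not count separately, so these counts are not counts of separate markers. The red blood cell entry miR-486-x went the other way and rose by 4.67 on the log2 scale (limma adjusted p = 5.8e-06), where 7.9% of all tested entries passed as higher. The leukocyte count lay near the share of all tested entries, and nothing is read from it. Of that list miR-150-x (1.15) and miR-146-y (0.55) lay above 0 without passing (limma adjusted p = 0.111 and 0.0705). The lists had medians of -0.86, -0.74 and -0.50 against -0.22 over all tested entries. Red blood cell entries summed to 679 to 872 TPM under moderate hypoxia against 2017 to 3512 TPM in control, those of the endothelium to 6719 to 7379 TPM under moderate hypoxia against 11982 to 16161 TPM in control, and those of leukocytes to 10702 to 10965 TPM under moderate hypoxia against 14977 to 21396 TPM in control. Set against moderate hypoxia, in acute hypoxia 3 of 6 red blood cell entries were higher and 1 lower, 2 of 2 endothelial entries were higher, and 1 of 8 leukocyte entries was higher and 1 lower, against 22.9% higher and 7.69% lower over all tested entries. The lower red blood cell entry was again miR-486-x (-4.71). No entry of these lists was at 0 in every library. Their part in the changes of miR-429-y and miR-205-x was not tested.

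**Figure D4:**
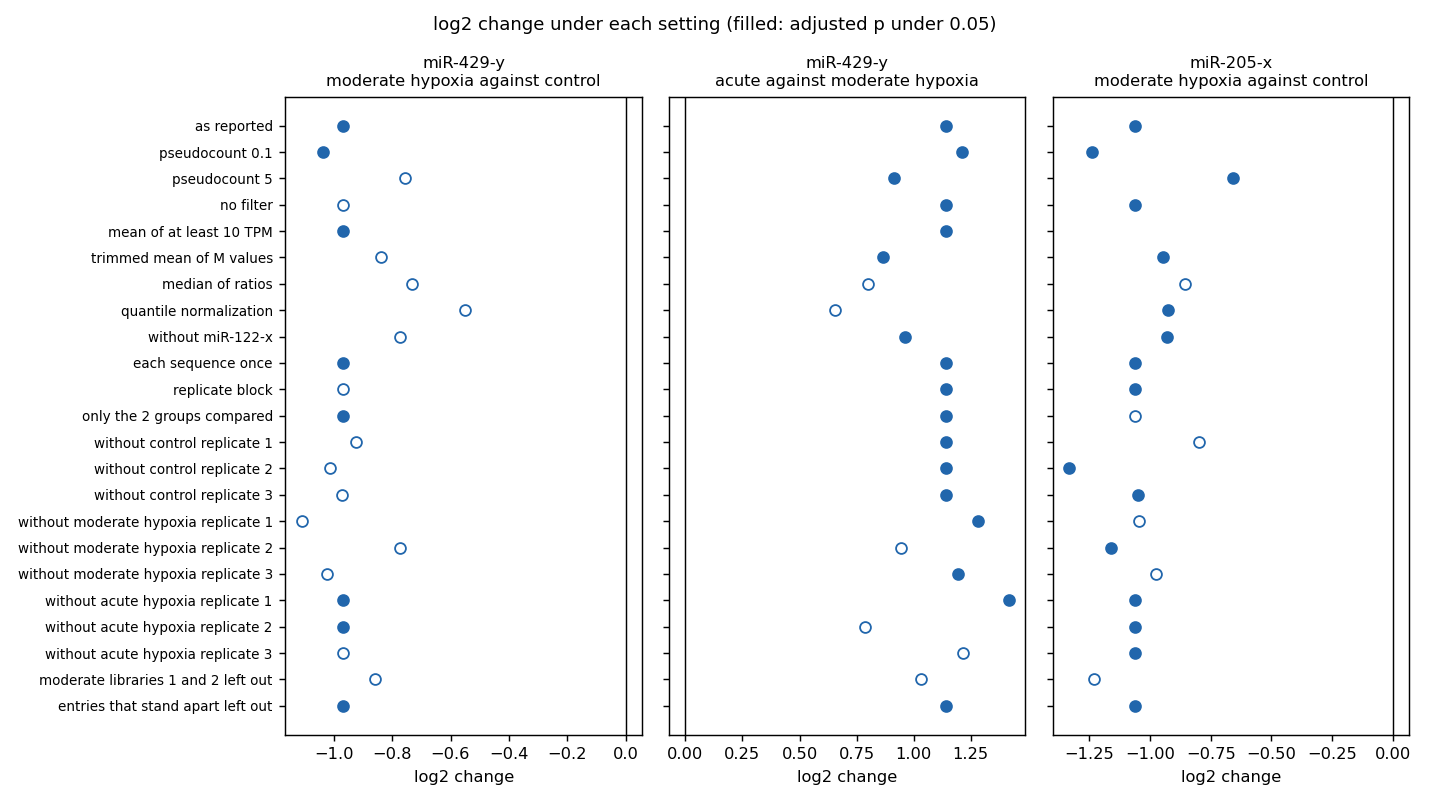
Log2 change of (TPM + 1) (horizontal axes) of miR-429-y and miR-205-x as reported and under each other setting (rows), filled where the limma adjusted p is under 0.05. The panels show moderate hypoxia against control for both and acute against moderate hypoxia for miR-429-y, where all values keep their sign, and those of miR-429-y under moderate hypoxia against control range from -1.11 to -0.55 with most points unfilled.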

How the data were processed

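Small RNA of 9 liver libraries was analysed. The authors deposited read abundances, a signal scaled to the reads of a library and named TPM per the file headers, in 3 stacked tables. The first and last hold the same 1413 entries and were joined over the 9 libraries, and the middle one served as an alternative. The log2 ratios, p-values and false discovery rates in the authors' deposited tables were printed as the authors' own, whose test has no name there. No source used here gives the aligner, genome build, positions or counting step. Values of 0.01, which lie below 1 read, were set to 0. Low values, up to 400 reads, were whole multiples of 1 step per library within 0.1 read in 100% of cases, which gave the reads.

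The 481 entries averaging 1 TPM or more were fitted as log2(TPM + 1) by limma-trend (limma 3.58.1, R 4.3.3) with 3 group means, adjusted by Benjamini and Hochberg. The method was also run on simulated independent libraries of equal depth and a common spread. That run does not bear on whether the calls hold in these libraries. Exact permutation tests used scipy 1.17.1. The miRNAs named are the members, all entries of their names or seeds, the 3 nearest profiles and list members that passed. Members and lists were chosen with earlier results of these data known. Alternatives were other pseudocounts (0.1 and 5), filters, scalings, distinct sequences, a replicate block, pairs of groups and leaving out libraries.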

Additional observations from a re-analysis of the deposited data

How the results depend on the processing

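The fall of miR-429-y under moderate hypoxia was no longer past the threshold with a pseudocount of 5 (-0.76), without a filter (-0.97), with trimmed mean of M values (-0.84), median of ratios (-0.73), quantile normalization (-0.55), without miR-122-x (-0.77), and without moderate hypoxia libraries 1 and 2 (-0.86, chosen after seeing the data). With 1 library left out it ranged from -1.11 to -0.77. That of miR-205-x was lost with median of ratios (-0.85), with only the compared groups (-1.06) and without moderate hypoxia libraries 1 and 2 (-1.23), and ranged from -1.33 to -0.80 with 1 library left out. Acute against moderate hypoxia, miR-429-y lost its call with median of ratios (0.80), quantile normalization (0.66) and without moderate hypoxia libraries 1 and 2 (1.03), with a range of 0.79 to 1.42 with 1 library left out, and miR-205-x passed with only the compared groups (0.68) and ranged from 0.57 to 0.81. The causes were not tested. The change in acute hypoxia against control, which passed under no setting, ranged from -0.18 to 0.45 for miR-429-y and from -0.65 to -0.11 for miR-205-x with 1 library left out, and that of miR-429-y was below 0 without acute hypoxia library 2.

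Entries called under moderate hypoxia against control numbered 123 (38 higher, 85 lower), 75 at a mean of at least 10 TPM, 80 with quantile normalization, 10 without moderate hypoxia libraries 1 and 2 and 61 to 129 with 1 library left out. Acute against moderate hypoxia they numbered 147 (110 higher, 37 lower), 83 at 10 TPM, 28 without those 2 libraries and 73 to 186 with 1 library left out. Fewer entries or libraries enter these fits, apart from quantile normalization. The split moved with the scaling. Under moderate hypoxia against control, trimmed mean scaling gave 49 higher and 67 lower, the median of ratios 52 and 52, quantiles 40 and 40, and leaving out miR-122-x 51 and 53, and the same 4 gave 72 and 61, 61 and 68, 58 and 54, and 77 and 48 in acute against moderate hypoxia. The median of all tested entries moved to between -0.12 and -0.03 in the first of these comparisons and to between 0.04 and 0.17 in the other. In acute hypoxia against control 0 passed under every setting run.

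Values that passed under no setting changed sign for some members. Under moderate hypoxia against control miR-141-y read 0.084 with trimmed mean of M values, 0.20 with median of ratios, 0.30 with quantile normalization and 0.18 without miR-122-x, miR-200-y 0.12, 0.23 and 0.22 (not with quantile normalization), and miR-203-y 0.096, 0.30 and 0.078 (not with trimmed mean). Without moderate hypoxia libraries 1 and 2 miR-141-x read -0.24, miR-141-y 0.0014 and miR-200-y 0.0033. Acute hypoxia against control gave miR-141-y -0.13, -0.084 and -0.19, miR-203-y -0.060 and -0.014 (not with quantile normalization), and miR-429-z -0.053, -0.016 and -0.014, in the order of trimmed mean, median of ratios and quantile normalization. Acute against moderate hypoxia gave miR-141-y -0.21, -0.28, -0.49 and, without miR-122-x, -0.14, miR-200-y -0.12, -0.19 and, without miR-122-x, -0.045, miR-203-y -0.045, -0.11 and -0.25, and miR-200-z -0.10 with quantile normalization. With 1 library left out, values under moderate hypoxia against control ranged from -0.13 to 0.29 for miR-141-x, -0.46 to 0.23 for miR-141-y, -0.27 to 0.18 for miR-200-y, -0.13 to 0.52 for miR-200-z and -0.37 to 0.084 for miR-203-y. In acute hypoxia against control they ranged from -0.38 to 0.31 for miR-141-y, -0.098 to 0.43 for miR-200-y, -0.24 to 0.28 for miR-203-y and -0.31 to 0.50 for miR-429-z. In acute against moderate hypoxia they ranged from -0.12 to 0.25 for miR-141-y, -0.22 to 0.17 for miR-200-x, -0.075 to 0.45 for miR-200-y, -0.095 to 0.97 for miR-200-z and -0.084 to 0.46 for miR-203-y. Without acute hypoxia library 1 miR-141-x (0.94) and miR-429-z (1.19) passed in that comparison, and without control library 1 miR-205-x did (0.68).

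The replicate numbers pair the libraries only by number. Deviations of same-numbered libraries from their group means correlated between -0.21 and 0.26, and 3 of 9 libraries correlated best with their own number. With the replicate block 117 entries passed for moderate hypoxia and 0 for acute hypoxia, each against control, and 140 between both hypoxia groups, and miR-429-y under moderate hypoxia kept its value of -0.97 at a limma adjusted p of 0.0715. The planned count-model test on the recovered reads was not run. Leaving out the entries that stand apart, also chosen after seeing the data, changed no call of a member. At 36 to 124 reads of miR-205-x and 11 to 48 of miR-141-x and miR-429-z a library, depth limits what can be detected.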
